A study of Homo sapiens with 2 samples.

Results

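The 2 arrays of this series each compared Saos-2, a human osteosarcoma cell line with osteoblast traits, with Saos-2-2, a line derived from it that carries an shRNA against TSG101, and the values below ask how far each line's own RNA differed between replicate 1 and replicate 2. Saos-2, the parental line without the shRNA, was labelled with Cy3 on both arrays and Saos-2-2 with Cy5, so the dye and the line cannot be told apart. Saos-2-2 is 1 clone, picked after co-transformation with a GFP and puromycin-resistance plasmid that the parental line does not carry, and a line with a control shRNA was not on the arrays. Both lines grew in DMEM with fetal bovine serum and received no treatment. The comparison used both samples of the series, each array being 1 biological replicate, and every spot that was not a control and was usable on both arrays, 36211 of 41324. A gene could be named for 23212 of these spots, which held 22272 cDNA clones of 13190 genes. There were 7572 genes with 1 clone, 3424 with 2 and 2194 with at least 3, up to 12. Levels are net intensities (foreground less local background) after each of the 4 channels was scaled to a common median of 141.8, and differences are log2 of replicate 2 over replicate 1, taken per spot, averaged per clone and given as the median over a gene's clones.

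With 1 array a side, no spread between cultures can be had, and no test was possible. The error given is the SD or the range over different clones of a gene, which covers the spots and not the cultures. It was wide for 1 clone: the pooled SD over clones of a gene was 0.436 on the log2 scale for the Saos-2 difference, 0.549 for the Saos-2-2 difference and 0.391 for their difference, in which whatever a spot did to both dyes cancels. Replicate 2 differed from replicate 1 in culture, RNA, labelling and hybridisation at once, and for each line these cannot be told apart. Median foreground over background lay between 3.83 and 4.08 in the 4 channels, no spot had saturated pixels, and 42 to 91 spots a channel lay at the floor of 14.2.

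TSG101, the shRNA target, is part of ESCRT-I, a complex that sends ubiquitin-tagged membrane proteins into endosomal vesicles. Its 1 clone read 461.7 in Saos-2 replicate 1 and 443.9 in replicate 2, and 280.5 and 325.4 in Saos-2-2. Saos-2-2 was thus the lower channel on both arrays, and neither line differed much between them: the log2 difference was -0.06 in Saos-2 and 0.21 in Saos-2-2. CDKN1A, the gene of the cell cycle inhibitor p21, had 2 clones. The first read 257.4 and 191.2 in Saos-2 (replicate 1, then replicate 2) and 726.6 and 1135 in Saos-2-2. The second read 126.1 and 145.0 in Saos-2 and 382.6 and 949.5 in Saos-2-2. Saos-2-2 was higher than Saos-2 for both clones on both arrays, with a median log2 ratio of 1.55 on replicate 1 and 2.64 on replicate 2. The ratio was wider on replicate 2 with both clones. The Saos-2-2 channel differed by 0.64 and 1.31, and the Saos-2 channel by -0.43 and 0.20. With medians of 0.98 and -0.11, CDKN1A fell short of the 2-fold move needed, under the rule given below, to be put with 1 line. CDK6, a G1 kinase, had a median over 5 clones of -0.09 in the parental line and -0.00 in the knockdown line.

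Osteoblasts build bone by secreting type I collagen and a set of non-collagenous proteins, which enzymes such as lysyl oxidase then cross-link and which alkaline phosphatase helps to mineralise. Saos-2 is known for keeping much of this programme in culture. Wnt, BMP and TGF-beta ligands, their antagonists and the matricellular proteins that bind them steer the programme in bone.

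The promoter windows of 4 genes are shown because their Saos-2-2 differences are among those the results turn on, SPP1 and LOX higher and LSAMP and GREM1 lower on replicate 2, and were chosen after their values were seen. Each runs from 250 bases before to 50 bases after the transcription start in RefSeq on GRCh38.p14, 5′ to 3′ on the gene's strand: SPP1 at chr4:87975464-87975763 (+), LOX at chr5:122078210-122078509 (-), LSAMP at chr3:116445438-116445737 (-) and GREM1 at chr15:32717754-32718053 (+). Capitals mark GGGCGG (the GC box), CCAAT and TGTGGT (a core RUNX site), each searched on both strands, and no match overlaps another.
SPP1: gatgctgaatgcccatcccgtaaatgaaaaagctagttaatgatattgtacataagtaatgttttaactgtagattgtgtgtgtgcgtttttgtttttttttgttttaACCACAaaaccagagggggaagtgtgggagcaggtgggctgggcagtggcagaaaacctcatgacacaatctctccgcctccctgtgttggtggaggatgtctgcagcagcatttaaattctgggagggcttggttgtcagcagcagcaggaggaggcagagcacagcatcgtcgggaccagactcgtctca
LOX: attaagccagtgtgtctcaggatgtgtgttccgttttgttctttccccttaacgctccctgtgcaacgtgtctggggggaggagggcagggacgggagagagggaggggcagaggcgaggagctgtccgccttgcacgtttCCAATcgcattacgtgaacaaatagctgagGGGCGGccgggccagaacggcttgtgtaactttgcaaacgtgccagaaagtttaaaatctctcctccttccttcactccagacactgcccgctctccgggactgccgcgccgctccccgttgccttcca
LSAMP: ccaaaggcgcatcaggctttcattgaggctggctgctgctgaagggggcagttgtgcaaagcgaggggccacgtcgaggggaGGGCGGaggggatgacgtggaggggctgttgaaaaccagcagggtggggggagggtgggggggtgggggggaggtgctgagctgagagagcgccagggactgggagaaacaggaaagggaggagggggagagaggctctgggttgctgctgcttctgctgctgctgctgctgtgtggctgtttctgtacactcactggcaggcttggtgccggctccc
GREM1: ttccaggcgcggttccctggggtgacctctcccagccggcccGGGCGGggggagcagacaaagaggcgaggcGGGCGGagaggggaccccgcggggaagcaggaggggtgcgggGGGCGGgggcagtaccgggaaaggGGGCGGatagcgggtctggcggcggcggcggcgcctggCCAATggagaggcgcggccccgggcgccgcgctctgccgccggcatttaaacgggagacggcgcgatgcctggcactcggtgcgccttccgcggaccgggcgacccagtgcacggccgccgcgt

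SPP1 held 1 match, TGTGGT on the reverse strand 142 bases before the start. LOX held a CCAAT and a GC box, LSAMP 1 GC box and GREM1 4 GC boxes and a CCAAT. CG pairs numbered 6, 19, 8 and 42, against a median of 14 over all 27305 promoters in the table. The median was 26 over the 4578 genes with at least 2 clones that were matched to a promoter. The GC box was in 44.6% of all promoters, CCAAT in 35.7% and TGTGGT in 13.1%. Of genes with at least 2 clones, 104 of 134 with a higher ratio on replicate 2 and 66 of 82 with a lower one were matched to a promoter. TGTGGT was in 8.65% and 7.58% of them and in 9.09% of all 4578 matched genes with at least 2 clones. The GC box was in 70.2%, 62.1% and 68.1%. In the extracellular matrix and osteoblast list, 17 of 27 genes were matched and 5 (29.4%) held TGTGGT. These 17 also differed in other letters from all matched genes with at least 2 clones. The GC box was in 41.2% against 68.1%, CCAAT in 23.5% against 35.2% and TATAAA in 29.4% against 6.77%. Their median number of CG pairs was 11 against 26. A match is a description of letters and no evidence of binding.

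Genes whose ratio of Saos-2-2 over Saos-2 differed between the arrays mostly differed more in Saos-2-2 than in Saos-2. Of the 2194 genes with at least 3 clones, 71 had a ratio at least 2-fold apart between the arrays with every clone of the same sign: 45 had a higher ratio on replicate 2 (2.05% of the genes) and 26 a lower one (1.19%). In all 71 the Saos-2-2 difference was the larger in size, with a median size of 1.17 on the log2 scale against 0.15 in Saos-2. By the rule that 1 line had to move 2-fold and the other by less than 1.41-fold, 49 genes were put with Saos-2-2 (34 higher and 15 lower) and 0 with Saos-2. The number put with Saos-2-2 was 26 with an offset of 50 in place of the floor, 30 with normexp background correction and 158 with at least 2 clones, and 2 genes were put with Saos-2 when net medians were used. In 4 genes both lines moved past 1.41-fold in opposite directions, and 18 met none of these rules, with a largest Saos-2-2 difference of 0.97. Among the 49, every clone had the same sign in Saos-2-2 for 45 genes. Just inside the 2-fold limit lay BAALC (ratio change 1.002), AIG1 (-1.006) and TMSB4X (1.006), and just outside it XPO7 (-0.999), CALD1 (0.998) and ST8SIA4 (-0.997).

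Each line was also taken alone. These counts use the same spot values as the ratio change and are no separate evidence. Over all spots used, the SD was 0.63 for the Saos-2-2 difference and 0.44 for the Saos-2 difference. In Saos-2, 0 of the 2194 genes were at least 2-fold apart between the replicates with all clones of 1 sign, higher or lower (0% in both directions), a count that was 11 when the net intensity was taken from pixel medians in place of means. In Saos-2-2, 40 genes were higher on replicate 2 (1.82%) and 18 lower (0.82%). The largest Saos-2 differences that all clones shared were -0.65 and 0.72, against -3.85 and 3.02 in Saos-2-2. Of the 3424 genes with 2 clones, 145 changed their ratio. There, 109 were put with Saos-2-2, 2 with Saos-2, 6 had opposite moves and 28 met no rule, and the Saos-2-2 difference was the larger in 140.

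**Figure D1:**
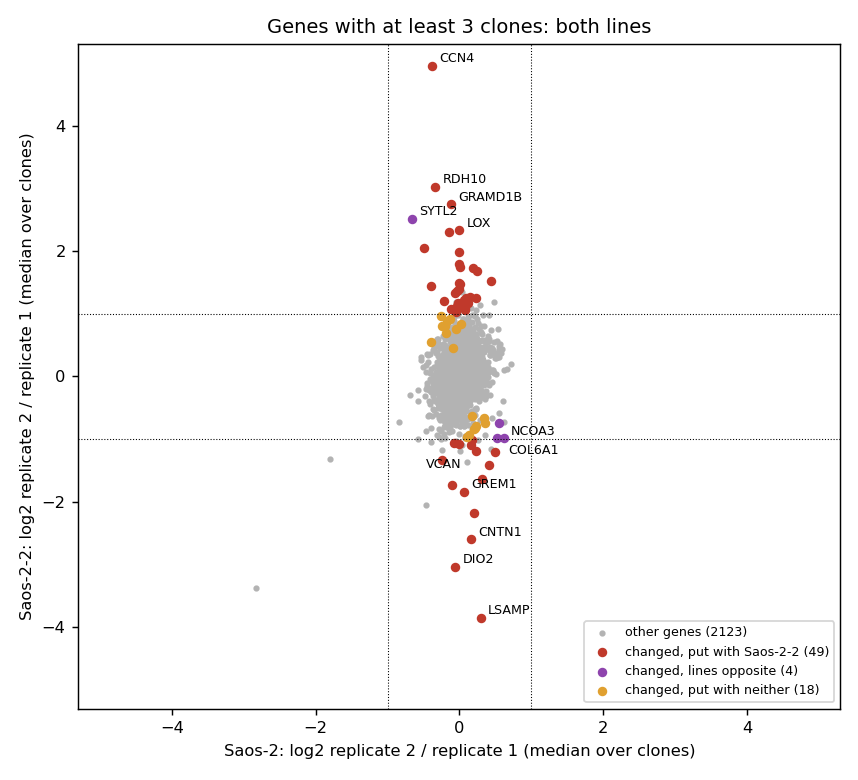
Each point is 1 of 2194 genes with at least 3 clones, with the log2 difference between replicate 2 and replicate 1 in Saos-2 on the horizontal axis and in Saos-2-2 on the vertical axis, and dotted lines at 2-fold. The 71 coloured genes spread along the Saos-2-2 axis, from LSAMP at -3.85 to CCN4 at 4.95, and none of them lies past 2-fold in Saos-2.

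Different clones of a gene are separate spots. Over 14700 clones of 5618 genes, the Saos-2 difference of 1 clone had a correlation of -0.0005 with that of another clone of its gene. The Saos-2-2 difference had 0.322, and the change of the ratio at 0.526. These are descriptions across clones, which share their array and may share sequence. Put as variance, clones of a gene shared 32.2% of the Saos-2-2 variance and 52.6% of that of the ratio change. On the same spot, by contrast, the Saos-2 and Saos-2-2 differences correlated at 0.535, while across different clones of a gene they correlated at -0.0469. Within an array the covariance of the log2 ratio between clones was 0.1414 on replicate 1 and 0.1464 on replicate 2, and across the arrays it was 0.0591.

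**Figure D2:**
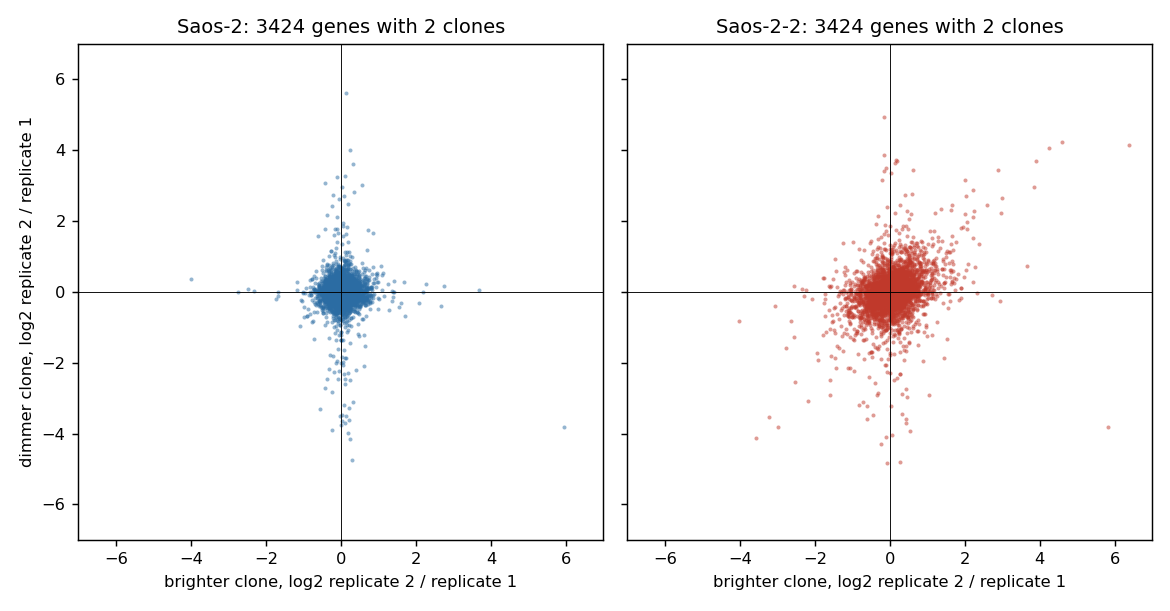
Each point is 1 of 3424 genes with 2 clones, with the log2 difference between replicate 2 and replicate 1 of the brighter clone on the horizontal axis and of the dimmer clone on the vertical axis, for Saos-2 (left) and Saos-2-2 (right). In Saos-2 the large values lie along the axes, where only 1 clone of the gene moved, and in Saos-2-2 a further set lies along the rising diagonal.

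Some spots differed in both lines at once. RPL34, a ribosomal protein gene with 1 clone, read 31.3 and 896.7 in Saos-2 and 22.8 and 755.1 in Saos-2-2, so that the lines differed together by 4.84 and 5.05 and the ratio hardly moved. ASNS, asparagine synthetase, also with 1 clone, did the reverse, at -3.80 and -3.65. Both were named after their values were seen. Of 191 genes with 1 clone that were 2-fold apart in Saos-2, 107 were 2-fold apart the same way in Saos-2-2, which is 1.41% of the genes with 1 clone. For genes with 2 clones it was 47 of 64 (1.37% of such genes), and for at least 3 clones 2 of 2 (0.0912%).

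CCN4, a matricellular protein induced by Wnt signalling, read 1206 and 927.4 in Saos-2 and 123.9 and 4207 in Saos-2-2 with 1 clone, and 1285 and 761.5 against 123.9 and 3825 with another. The remaining clone was dim in all 4 channels, between 40.1 and 55.2, and did not move. Saos-2-2 was thus far below Saos-2 on replicate 1 and above it on replicate 2 for the bright clones, with a median log2 ratio of -3.28 and then 2.18. RDH10, which makes retinaldehyde from retinol, was higher in Saos-2-2 replicate 2 with all 3 clones (195.3 and 1584, 48.6 and 440.4, and 326.1 and 2055), and their median difference was 3.02 ± 0.269 (SD over 3 clones), or 8.11-fold. In Saos-2 the same clones read 275.2 and 287.9, 83.4 and 65.9, and 716.0 and 425.2, a median of -0.34. GRAMD1B, a sterol transporter, differed by 2.74 in Saos-2-2 (range 1.81 to 3.04 over 3 clones) and by -0.12 in Saos-2.

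LOX, the lysyl oxidase that cross-links collagen and elastin, had the most clones of this group, 6. All were higher on replicate 2 in Saos-2-2, from 0.74 to 5.26, with a median of 2.33, and the clone with the highest reading went from 54.5 to 2091. In Saos-2 the 6 clones lay between -0.76 and 0.38 and their median was -0.00. SYTL2, an effector of the vesicle-tethering GTPase RAB27, was higher in Saos-2-2 with all 3 clones (2.51, range 1.94 to 2.99) and lower in Saos-2 with all 3 (-0.65, range -0.66 to -0.48), so that its ratio crossed from -2.11 to 1.42. SORBS2, a cytoskeletal adaptor, differed by 2.30, SLIT3, a secreted guidance ligand, by 1.73, CD44, the hyaluronan receptor, by 1.44 and PDGFD, a growth factor, by 1.80 in Saos-2-2, with Saos-2 between -0.40 and 0.19. For CD36, the fatty acid and thrombospondin receptor, the clones disagreed: a pair read 124.9 and 2246, and 164.5 and 2708 in Saos-2-2, while the other pair moved by 0.06 and -0.50. TP53I11 also had 1 clone of 3 that moved little, at 0.21.

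LSAMP, an immunoglobulin-family adhesion protein, had the lowest Saos-2-2 median, and read 781.1 and 44.6, 1098 and 308.5, 564.0 and 47.2, and 721.6 and 25.9 in Saos-2-2 replicate 1 and replicate 2. In Saos-2 the same 4 clones stayed between 138.6 and 248.3 on both arrays. All 4 clones were above Saos-2 on replicate 1 and 3 of them below it on replicate 2, and the median log2 ratio went from 2.17 to -2.32. DIO2, the deiodinase that makes active thyroid hormone, went from 482.7, 863.4 and 343.0 to 66.0, 66.0 and 37.4 in 3 clones of Saos-2-2, while the fourth was dim throughout. On replicate 2 each clone read below its Saos-2 channel. Over both arrays the 4 clones lay between 36.3 and 121.9 in Saos-2. GREM1, a secreted BMP antagonist, was below Saos-2 on both arrays and further below on replicate 2: its 4 clones read 467.9 to 730.6 and then 79.3 to 506.4 in Saos-2-2, against 1037 to 2208 in Saos-2. Its median difference was -1.84 ± 0.847 (SD over 4 clones) in Saos-2-2 and 0.06 in Saos-2.

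VCAN, the large proteoglycan versican, lay above Saos-2 on replicate 1 and below it on replicate 2 with all 4 clones. Saos-2-2 read 1579 and 831.8, 2287 and 659.7, 1866 and 875.5, and 1302 and 520.6, and the ratio went from 0.36 to -1.34. Saos-2 moved the other way by 0.49. EDIL3, an integrin-binding matrix protein, differed by -1.41 ± 0.137 (SD over 3 clones) in Saos-2-2 and 0.41 in Saos-2. MAF, a leucine-zipper transcription factor, differed by -2.17, with 1 of its 3 clones at 0.16. PRELP, a leucine-rich matrix proteoglycan, differed by -1.63, and WNT11, a Wnt ligand, by -1.02. CNTN1, a neural adhesion protein, was named after its values were seen, since 1 clone reached the floor, and differed by -2.60 (range -3.19 to -2.16 over 3 clones).

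**Figure D3:**
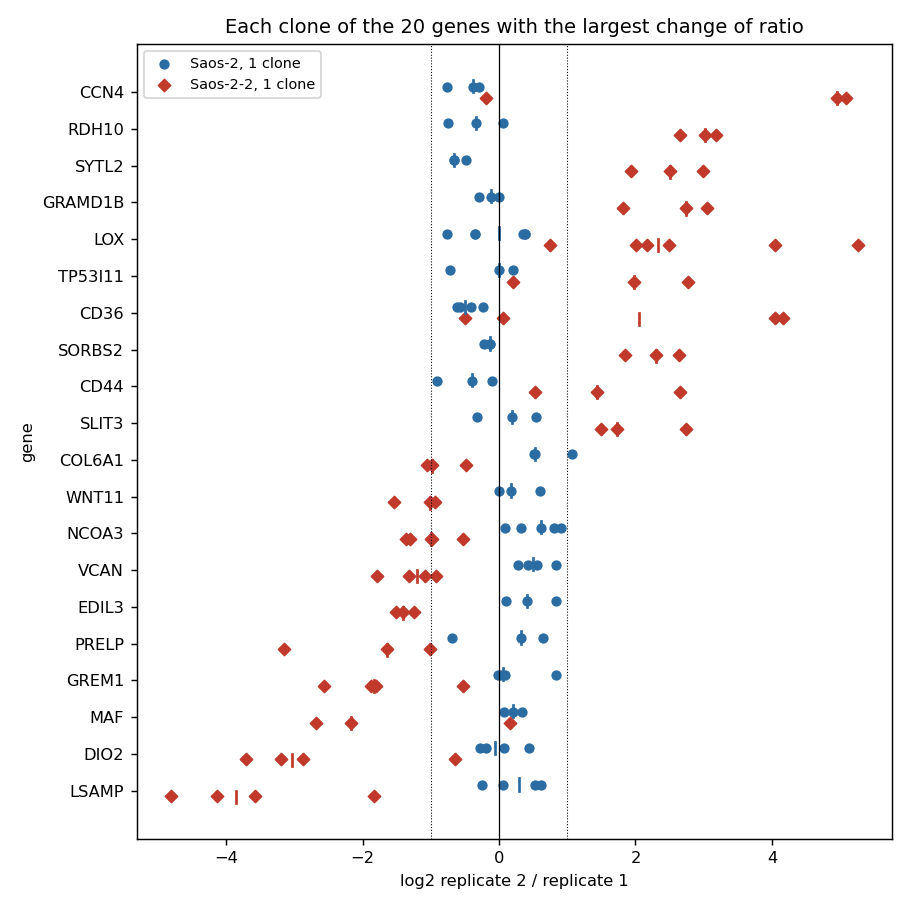
Every clone of the 10 genes with the largest gain and the 10 with the largest loss of the Saos-2-2 over Saos-2 ratio on replicate 2, on a horizontal axis of log2 replicate 2 over replicate 1, with circles for Saos-2, diamonds for Saos-2-2, short bars at the medians and dotted lines at 2-fold. The diamonds spread from -4.80 (LSAMP) to 5.26 (LOX) and the circles stay between -0.91 (CD44) and 1.07 (COL6A1), and 1 or more diamonds of CCN4, TP53I11, CD36 and MAF lie near 0.

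Both lines took part in a few genes. NCOA3, a coactivator of nuclear receptors, was higher on replicate 2 in Saos-2 with all 5 clones (median 0.62) and lower in Saos-2-2 with all 5 (median -0.99). COL6A1, a chain of type VI collagen, read 1579 and 2255, 1964 and 2824, and 1669 and 3514 in Saos-2 and 4396 and 2111, 4060 and 2051, and 4700 and 3347 in Saos-2-2. With every clone Saos-2-2 was above Saos-2 on replicate 1 (log2 ratio 1.05 to 1.49) and below it on replicate 2 (-0.46 to -0.07). COL6A2, which pairs with it, differed by 0.61 in Saos-2 and -0.73 in Saos-2-2, but by 0.05 in Saos-2-2 with 1 of its 3 clones. With net medians in place of means, the Saos-2-2 differences of COL6A1 and COL6A2 were 0.02 and 0.05. The genes named by the rule for Saos-2 alone were small: the largest were MKKS (0.72, range 0.42 to 0.93), NCOA3 and COL6A2 above 0, and SYTL2 and PIGF (-0.53) below it, each with 3 to 5 clones.

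The strongest gain in a gene list was in the extracellular matrix and osteoblast genes. Of 27 measured, 12 were at least 2-fold higher in Saos-2-2 on replicate 2 and 1 lower, where 3.72% of all 13190 genes were 2-fold higher and 2.83% lower in that line. The list's median was 0.89 in Saos-2-2 against 0.04 over all genes. In Saos-2, 0 of the 27 passed 2-fold in either direction (all genes: 0.978% higher, 0.97% lower) and the median was -0.16, while with net medians 4 passed. The ratio was at least 2-fold higher for 13 and lower for 2 (all genes: 3.15% higher, 2.05% lower). The list was drawn up with results of these data known, and its direction is no independent evidence.

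COL1A1 and COL1A2 encode the chains of type I collagen. The COL1A1 clones read 2661 and 1965, and 6114 and 5419 in Saos-2, and 312.2 and 4032, and 633.4 and 9379 in Saos-2-2. Its difference was 3.79 ± 0.14 (SD over 2 clones), or 13.8-fold. The COL1A2 clones read 450.3 and 182.4, and 2685 and 2149 in Saos-2, and 72.4 and 1285, and 205.2 and 17076 in Saos-2-2, so that the Saos-2-2 difference was 5.26 and the Saos-2 difference -0.81. LUM, the collagen-binding proteoglycan lumican, read 6398 and 5638, and 4442 and 3880 in Saos-2 and 478.8 and 11585, and 358.3 and 6802 in Saos-2-2. For all 3 genes Saos-2-2 was below Saos-2 on replicate 1 and above it on replicate 2 with both clones, and the log2 ratio went from -3.18 to 0.91, from -3.17 to 2.90 and from -3.69 to 0.93.

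Members with 1 clone, named after their values were seen, were higher in some cases and not in others. SPP1, the bone sialoprotein osteopontin, read 106.3 and 83.5 in Saos-2 and 37.7 and 2107 in Saos-2-2. SPARC, the collagen-binding osteonectin, read 1843 and 1304 in Saos-2 and 303.3 and 5227 in Saos-2-2. COL12A1 and COL5A2, chains of minor collagens of the fibril, differed by 3.53 and 2.97 in Saos-2-2, and their ratios by 4.13 and 3.55. IBSP, a second bone sialoprotein, and ALPL, the alkaline phosphatase of mineralising cells, differed less, by 1.59 and 1.14, and stayed below Saos-2 on both arrays. COL3A1, with 4 clones, also stayed below in its median, but 1 clone read 80.2 in Saos-2 and 85.6 in Saos-2-2 on replicate 2. Its Saos-2-2 difference was 0.89 and its Saos-2 difference -0.17. RUNX2, the transcription factor of the osteoblast lineage, had a median of -0.01 over 3 clones, and BGLAP, the late marker osteocalcin, was at -0.59 with 1 clone. POSTN, the matrix protein periostin, also with 1 clone, was at -0.63. COL11A1, a fibril chain better known from cartilage, went against the list at -1.74, and its clone with the largest difference was at -2.59 in Saos-2 and at -4.43 in Saos-2-2, where it reached the floor.

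**Figure D4:**
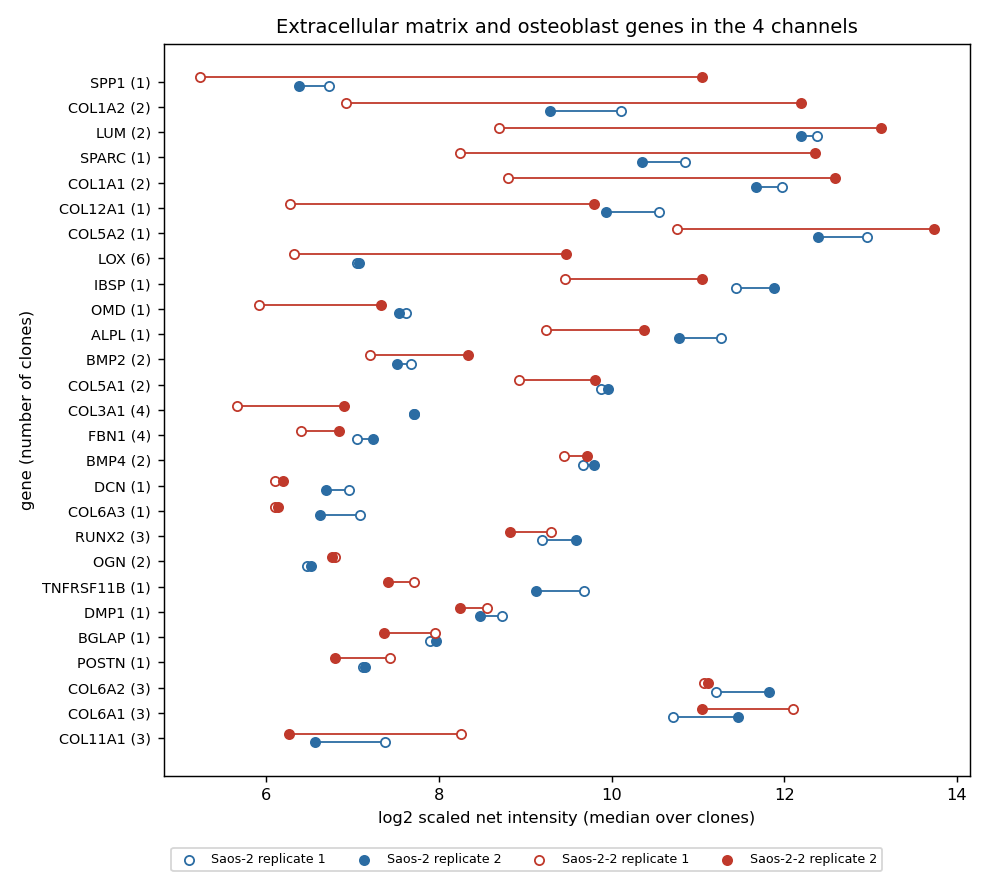
The 27 measured extracellular matrix and osteoblast genes, 1 to a line, with the number of clones in brackets and the log2 scaled net intensity on the horizontal axis, open symbols for replicate 1 and filled for replicate 2, Saos-2 in blue and Saos-2-2 in red. The red lines of SPP1, COL1A2, LUM, SPARC and COL1A1 are the longest and cross the blue ones from below, while no blue line spans 2-fold.

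Over all genes with at least 2 clones, the Saos-2 difference was set beside the size of the Saos-2-2 difference. Of the 27 genes at least 4-fold higher in Saos-2-2, 18 were below 0 in Saos-2, with a median of -0.05. Of the 130 that were 2-fold to 4-fold higher, 58 were below 0, with a median of 0.03. Of the 5341 that moved less than 2-fold, 2608 were below 0. Of genes lower in Saos-2-2, 69 of the 99 between 2-fold and 4-fold and 13 of the 21 at least 4-fold were below 0 in Saos-2, with medians of -0.21 and -0.30. The classes were formed on the same spots as the Saos-2 differences. On the same spot the lines correlated at 0.535, against -0.0469 across different clones of a gene. These counts therefore cannot tell a shared move of a gene from an error of a spot.

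Other genes with large values included secreted Wnt inhibitors and receptors, all but BMP2 named after their values were seen. WIF1, a secreted Wnt inhibitor, read 359.5 and 308.2 in Saos-2 and 333.6 and 2978 in Saos-2-2 (medians of 2 clones). DKK1, another Wnt inhibitor, read 332.1 and 2919 in Saos-2-2 with its 1 clone, against 1759 and 1510 in Saos-2. S1PR3, a receptor of sphingosine 1-phosphate, differed by 4.15 ± 0.123 (SD over 2 clones). TAC3, the precursor of neurokinin B, had the largest Saos-2-2 difference of all genes, 6.58. Its 1 clone read 30.7 and 2934 in Saos-2-2 and 160.5 and 103.3 in Saos-2. The largest Saos-2 difference of any gene was 7.53. BMP2, a bone-inducing ligand, differed by 1.13 with 2 clones. FRZB, a secreted Wnt antagonist, went the other way at -1.07 over 4 clones, and CYP4X1, a cytochrome P450, and GRIK1, a kainate receptor subunit, went from 747.6 to 51.9 and from 669.5 to 63.9 in Saos-2-2 while Saos-2 read 89.6 and 103.2, and 103.3 and 86.0.

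Genes that respond to TGF-beta, YAP and SRF came next. Of 28 measured, 9 were 2-fold higher and 2 lower in Saos-2-2 (all genes: 3.72% and 2.83%), with a median of 0.44, and in Saos-2 1 was higher and 2 lower, with a median of 0. The ratio was 2-fold higher for 5 and lower for 0 (all genes: 3.15% and 2.05%). SKIL, a repressor of SMAD signalling with 1 clone, had differences of 1.35 (Saos-2) and 2.32 (Saos-2-2). ACTG2, a smooth muscle actin with 1 clone, had -1.83 and -1.71. Both were named after their values were seen. CCN1, a matricellular YAP target, read 933.8 and 1635, 132.8 and 379.8, and 714.7 and 2453 in Saos-2-2, and stayed under Saos-2, at 865.1 to 7854, on both arrays. Its ratio went from -2.70 to -1.67. CCN2, its close relative, differed by 1.37 ± 0.352 (SD over 2 clones) in Saos-2-2 and -0.12 in Saos-2. THBS1, thrombospondin, differed by 1.09 with a range of 0.53 to 2.89 over 3 clones. COL1A1 and BGN are members of this list as well. AMOTL2 was lower in both lines with 1 of its 2 clones (-3.32 and -3.22) and not with the other (-0.56 and 0.03).

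Glycolysis and hypoxia genes were split: 6 of 29 were 2-fold higher in Saos-2-2 and 1 lower (all genes: 3.72% and 2.83%), with a median of 0.34. The ratio was 2-fold higher for 5 and lower for 1 (all genes: 3.15% and 2.05%). ADM, the vasodilator adrenomedullin, read 125.9 and 745.3 with its 1 clone and was named after its values were seen, and P4HA2, a collagen prolyl hydroxylase, differed by 1.05 with 2 clones. EGLN3, a prolyl hydroxylase that marks HIF for decay, differed by -2.26, with clones at -2.92 and -1.61. Of 28 interferon-stimulated genes measured, 5 were 2-fold higher and 0 lower in Saos-2-2 (all genes: 3.72% and 2.83%), with a median of 0.17. Their ratio was 2-fold higher for 4 and lower for 1 (all genes: 3.15% and 2.05%). The ratio change was below 0 for 13 of the 28, against 46.5% of all genes. IFIT1 and IFIT2, which bind viral RNA or its translation machinery, each differed by 1.07 over 3 clones, ISG15, a ubiquitin-like modifier, by 1.15 and RIGI, an RNA sensor, by 1.13 over 2. IFITM1, a membrane restriction factor, went the other way at -0.85. Of 21 immediate early genes, 2 were 2-fold higher and 0 lower in Saos-2-2 (all genes: 3.72% and 2.83%). The 2 were the transcription factors KLF4 (1.44) and KLF6 (1.24). NR4A1, an orphan nuclear receptor with 1 clone, went the other way, at -0.98 in Saos-2-2 and -1.08 in the ratio, and was named after its values were seen.

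Mitotic genes shifted together by a small amount. Of 31 G2/M genes measured, 26 were below 0 in Saos-2-2 and 1 was 2-fold lower, CENPF, a kinetochore protein, at -1.58 with 1 clone. The median was -0.39 in Saos-2-2 and 0.04 in Saos-2, where 10 were below 0. Over all genes 6004 of 13190 were below 0 in Saos-2-2, and 2.83% were 2-fold lower. NEK2, a centrosomal kinase with 3 clones, differed by -0.79 (both named after their values were seen). RRM2, the regulated subunit of ribonucleotide reductase and an S phase gene, differed by -1.10 with 2 clones. Of 26 S phase genes measured, 1 was 2-fold higher and 3 lower in Saos-2-2 (all genes: 3.72% and 2.83%), with a median of -0.12. RRM1, counted among those 3, had 2 clones that disagreed. The first fell on replicate 2 in each line (Saos-2 -3.64, Saos-2-2 -4.085), while the second hardly moved (Saos-2 0.025, Saos-2-2 -0.106). Its medians (Saos-2 -1.81, Saos-2-2 -2.1) thus rest on 1 clone. The endoplasmic reticulum chaperones shifted the other way: 14 of 16 were above 0 in Saos-2-2, with a median of 0.35, and the ratio change was above 0 for all 16, from 0.08 to 0.76, with none past 2-fold. No member passed 2-fold in Saos-2-2 among fatty acid synthesis genes (11 measured), cytosolic heat shock proteins (13), replication-dependent histones (14) or markers of blood cells (13), where 6.55% of all genes did. Of 55 ribosomal protein genes, 46 were above 0 in Saos-2 and 42 in Saos-2-2, with medians of 0.22 and 0.24, so that the ratio stayed at -0.01. Of 26 ESCRT genes, 2 were 2-fold higher in Saos-2-2 and the ratio of 0 changed 2-fold, where 3.72% and 5.19% of all genes did.

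Markers of cell types were read in each channel. The 8 measured osteoblast lineage markers summed to 13158 and 11836 in Saos-2 and to 3089 and 22225 in Saos-2-2, and 7, 7, 6 and 8 of them were above the median spot. In Saos-2-2, 6 of the 8 were 2-fold higher, while RUNX2 and BGLAP differed by -0.01 and -0.59. The highest Saos-2-2 readings on replicate 2 were those of COL1A1 (6150), SPARC (5227) and COL1A2 (4684). Fewer cells that express a gene and less RNA per cell cannot be told apart in such samples. The 11 epithelial markers summed to 3125 and 2821, and 2443 and 2937, with EPCAM 2-fold higher and KRT5 2-fold lower in Saos-2-2. The 11 blood markers summed to 1573 and 1616, and 1317 and 1460, with PTPRC between 47.1 and 57.8 and none 2-fold apart. Of 8 endothelial and muscle markers KDR alone, with 1 clone, was 2-fold higher in Saos-2-2, and their sums were 1401, 1393, 812 and 993. The part of other cells in the matrix result was not tested.

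Control spots for green and yellow fluorescent protein, which match the reporter plasmid of Saos-2-2, read 17.7 to 47.2 in Saos-2 and 545.2 to 1668 in Saos-2-2 after scaling. In Saos-2-2 they read 1120 and 1491 (yellow), and 545.2 and 1204 and 1116 and 1668 (green), so that all 3 spots carried the reporter on both arrays and none was lower on replicate 2.

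Genes that lie next to each other on a chromosome also differed together in Saos-2-2. Genes were put in the order of the GRCh38.p14 RefSeq annotation, and the median difference was taken over every 51 neighbouring measured genes, a view added after the values were seen. In Saos-2 the 12024 windows lay between -0.15 and 0.12. In Saos-2-2 they lay between -0.47 and 0.45, and 5.15% of them were past 0.25 in size, against 0% in Saos-2. The longest stretch with a higher ratio on replicate 2 ran from TTC27 to FAM136A on chromosome 2: the ratio change was above 0 in 105 of 123 genes, and in 7061 of all 13190, and the median difference was 0.34 in Saos-2-2 and -0.01 in Saos-2. On chromosome 8, from TNFRSF10C to KAT6A, the ratio change was below 0 in 58 of 80 genes, with Saos-2-2 and Saos-2 medians of -0.36 and -0.04. On chromosome 10, from PRKCQ to CACNB2, it was above 0 in 33 of 41, with medians of 0.40 and -0.13. On chromosome 6, from COX7A2 to POPDC1, it was below 0 in 44 of 59, with medians of -0.18 and 0.03. The stretches were chosen by the values they are described with, and their cause was not tested. Windows of 31 genes ranged from -0.56 to 0.54 in Saos-2-2 and from -0.19 to 0.15 in Saos-2, and wider ones from -0.39 to 0.37 and from -0.09 to 0.08.

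**Figure D5:**
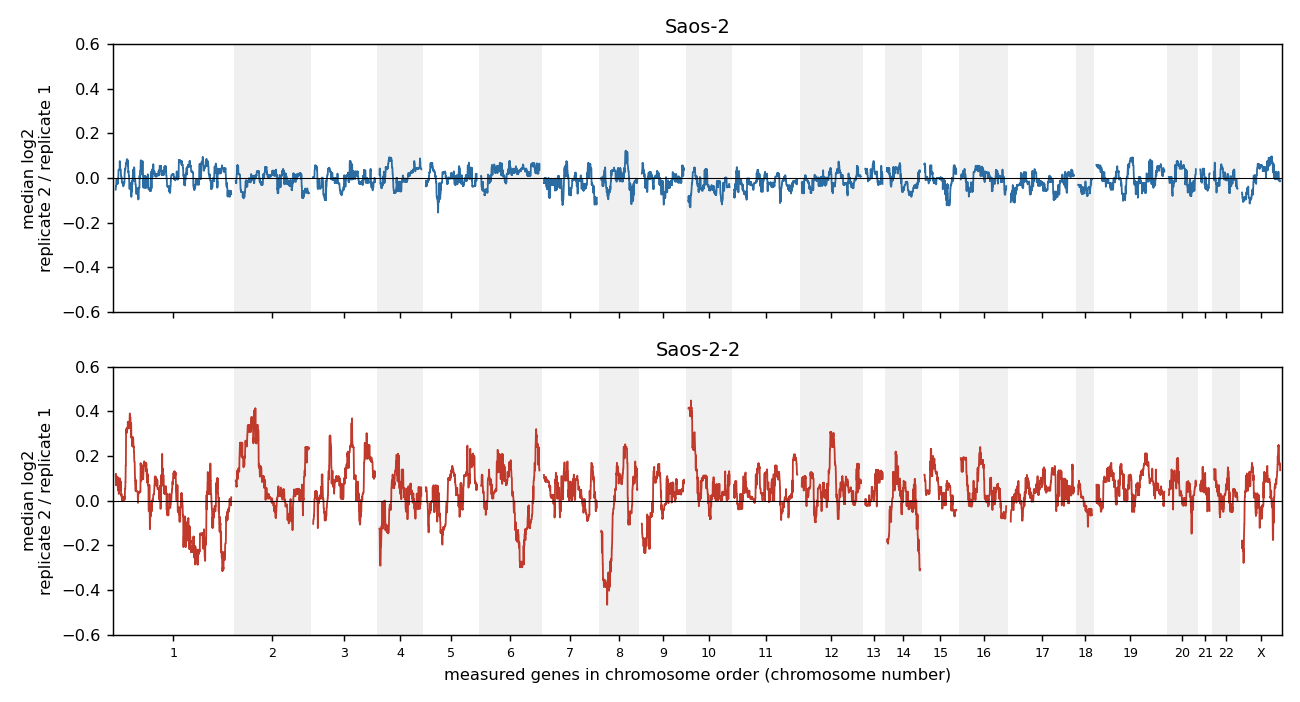
Running medians over 51 neighbouring measured genes of the log2 difference between replicate 2 and replicate 1, with genes in chromosome order on the horizontal axis and shading that alternates by chromosome, for Saos-2 (top) and Saos-2-2 (bottom). The Saos-2 line stays between -0.15 and 0.12 and the Saos-2-2 line runs from -0.47 on chromosome 8 to 0.45 on chromosome 10.

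On replicate 1 the 45 genes with a higher ratio on replicate 2 had a median log2 ratio of -0.55 and on replicate 2 of 0.70, and the ratio changed sign in 32 of them. The 26 with a lower ratio went from 0.76 to -0.86, with a change of sign in 17. In 3 and 1 of these genes, the ratio was at least 2-fold on both arrays in opposite directions, as it was for 2 and 0 of the 89 and 56 such genes with 2 clones. A ratio of at least 2-fold on replicate 1 that was under 1.41-fold on replicate 2 was seen in 6 and 7 of the genes with at least 3 clones, and the reverse in 10 and 4.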

How the data were processed

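Each array was a spotted cDNA array of 41568 spots, 244 of them controls. The authors deposited scanner intensity values per spot for both dyes, and a table of log2 ratios that equals the scanner's log2 ratio of medians for every value listed. The submitters' notes name Agilent Feature Extraction with no version. The deposited net intensity equals mean foreground less median background at every spot. Spots marked unusable on either array (3749 and 4381) were left out. The 4 channels were scaled to equal medians (factors 0.892 to 1.099), values under 10% of that median were set to that floor, and log2 was taken. Clones were named by gene ID (22809 spots) or symbol (403) through RefSeq, and 12444 spots had no gene.

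Named genes are TSG101, CDKN1A and CDK6, the 10 largest of each direction for either line and for the ratio (at least 3 clones, all of 1 sign, none at the floor), and list members with at least 2 clones past 2-fold. Others are said to be named after their values were seen. The gene lists and the members were chosen with earlier results of these data known. Alternatives were other background corrections, floors, normalizations, spot filters and ways of joining clones. The code was tested on simulated data. Python 3.11.15, numpy 2.4.6, pandas 2.3.3, statsmodels 0.14.6, R 4.3.3 and limma 3.58.1 (normexp, an alternative) were used.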

Additional observations from a re-analysis of the deposited data

Results flagged for a closer look

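In 4 genes with at least 3 clones, the lines moved in opposite directions between the arrays, each by at least 1.41-fold, and the ratio of Saos-2-2 over Saos-2 changed at least 2-fold. The change was 3.16 on the log2 scale for SYTL2, -1.60 for NCOA3, -1.56 for COL6A1 and -1.01 for AIG1. The difference between the lines was not tested, since each has 1 array a side.

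Fluorescent protein control spots, which no comparison used, carried signal in Saos-2-2 above the Saos-2 channel. Their Saos-2-2 difference between replicate 2 and replicate 1 was 0.41 for the yellow spot and 1.14 and 0.58 for the green spots. The Saos-2 channel, at 17.7 to 47.2, differed by 0.73, 1.24 and 0.42 on the same spots.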

How the results depend on the processing

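No replicate could be left out, since each difference needs both arrays. No paired analysis was possible because each line has 1 array a side and the result comes from no test. The Saos-2-2 difference was the larger in 88.9% to 100% of changed genes under 17 alternatives, lowest with the brightest clone only and next, at 92.5%, with net medians. Clone agreement stayed between 0.266 and 0.368 in Saos-2-2 and between -0.006 and 0.052 in Saos-2. An offset of 50 gave 37 genes in Saos-2-2, 37 ratio changes and 26 put with Saos-2-2, and normexp 40 ratio changes and 30 put with Saos-2-2. With at least 2 clones the counts were 235, 216 and 158. Genes that passed in Saos-2 numbered 11 with net medians, 5 with means over clones, 4 with the brightest clone, 1 with marked spots kept and 32 with at least 2 clones, and those put with Saos-2 were 2, 1 and 2 with net medians, the brightest clone and at least 2 clones. Values that turned were, with net medians, COL1A1 in Saos-2 (0.15), and COL6A1 (0.02), COL6A2 (0.05) and PPIF (0.03) in Saos-2-2. With the brightest clone they were MAF (0.16) and PPIF (0.12) in Saos-2-2 and the ratio change of ALS2CL (0.14), and with spots not averaged PPIF (0.12). The cause was not tested. Of 4047 values of named genes under alternatives, 3953 moved by no more than the SD over clones, or a wider fixed limit where that SD was small or missing. Leaving out failed wells, chosen after seeing the data, moved no count past 1.5 times.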
